A study of Mus musculus with 6 samples.

Results

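Spermatogonial stem cells (SSCs) can be expanded from the mouse testis as germline stem (GS) cells, a culture that relies on glial cell line-derived neurotrophic factor (GDNF). This account describes 8 transcription factor genes known to respond to GDNF in these cells, namely Bcl6b, Etv5, Lhx1, Id4, Pou3f1, Egr2, Egr3 and Egr4. They were taken by name from the 32285 genes of the count table, and 8 of 8 were found. All libraries came from GS cells of DBA/2 mice that carried the Tg14(act-EGFP-OsbY01) transgene, established from testes of pups aged 2 to 3 days. The frozen cells spent 6 months either on the International Space Station (3 libraries titled Space) or on Earth (3 libraries titled Ground). According to the methods of the study, cells grew on mouse embryonic fibroblasts (MEFs) in medium with GDNF and FGF2, and RNA was taken on the day after thawing, without passage. The cultures are therefore a mixture of SSCs, progenitors and residual feeder cells, and the RNA is a sum over all of them. In such bulk RNA, fewer cells of a type and less RNA per cell cannot be told apart.

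The treatment label of each of the 6 libraries states the opposite of its title. Groups follow the titles, which the column names of the table share, and every sign of a difference would turn if the treatment labels were the correct ones.

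GDNF binds the co-receptor GFRA1 and signals through the receptor tyrosine kinase RET, which engages SRC family kinases, the PI3K-AKT pathway and the RAS-ERK pathway. Bcl6b, Etv5 and Lhx1 are established downstream transcription factors that sustain SSC self-renewal. The Egr genes are immediate early genes whose transcription follows ERK activation within a short time of stimulation.

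Libraries held 19015985 to 24110916 counts. The lowest count of any of the 8 genes was 303 for Egr3 in Ground-3, with an exact 95% Poisson interval of 270 to 339. Intervals of this kind cover counting error only. Levels are given as CPM, the counts normalised to library size with TMM factors (trimmed mean of M-values), in the order Ground-1, Ground-2, Ground-3, Space-1, Space-2 and Space-3. The libraries resembled each other across groups rather than within them. Over the 15104 genes tested, the root mean square difference in log2 CPM was 0.24 to 0.32 in 3 pairs of a Ground and a Space library, called the closest pairs here. They joined Ground-1 to Space-3, Ground-2 to Space-2, and Ground-3 to Space-1. It was 0.35 to 0.53 in the other 12 pairs of libraries. The 3 closest pairs were not copies, as their median chi-square was 1.55 to 2.67 times that of sampling noise. Which libraries came from a common culture is not given by the labels. P-values measure only the spread between these libraries. Mitochondrial transcripts took 11.5% of counts in Ground-2 and 7.12% in Space-2, against 2.51% to 5.69% in the other 4 libraries.

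Spermatogonial identity was checked with 10 germ cell markers, among them the RNA helicase gene Ddx4 and the RNA-binding protein gene Dazl. All 10 were detected, with a summed level of 3449 to 3666 CPM in Ground and 3472 to 3671 CPM in Space. The 20 fibroblast markers summed to 1226 to 1232 CPM in Ground and 924 to 1239 CPM in Space, and none of them was at 0. The 6 Sertoli cell markers summed to 24.6 to 28.0 CPM. Of these, 4 were among the genes tested, and only the receptor gene Fshr was at 0 in all libraries.

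None of the 8 genes passed the test between Space and Ground GS cells. All 8 passed the filter on low counts, and 0 of 8 passed edgeR's quasi-likelihood test at a Benjamini-Hochberg adjusted p under 0.05, where the background over all tested genes was 0%. Without adjustment, 0 of 8 genes had a p under 0.05, against 0.609% of all genes tested (92 of 15104 by edgeR, 45 by DESeq2 and 88 by limma-voom). Evenly spread p-values would place a share of 0.05 under that threshold, so the unpaired test was conservative in these libraries. A high p here is therefore not evidence of equal levels. The groups overlapped in 8 of 8 genes, whereas 3.59% of all genes had no overlap, 1.61% with every Space library above and 1.98% with every Space library below Ground. The median log2 fold change of the 8 genes was 0.026, beside -0.0020 over all genes. Over the 6 libraries, however, the fold between the highest and the lowest ran from 1.19 for Id4 to 6.45 for Bcl6b among the 8 genes.

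**Figure D1:**
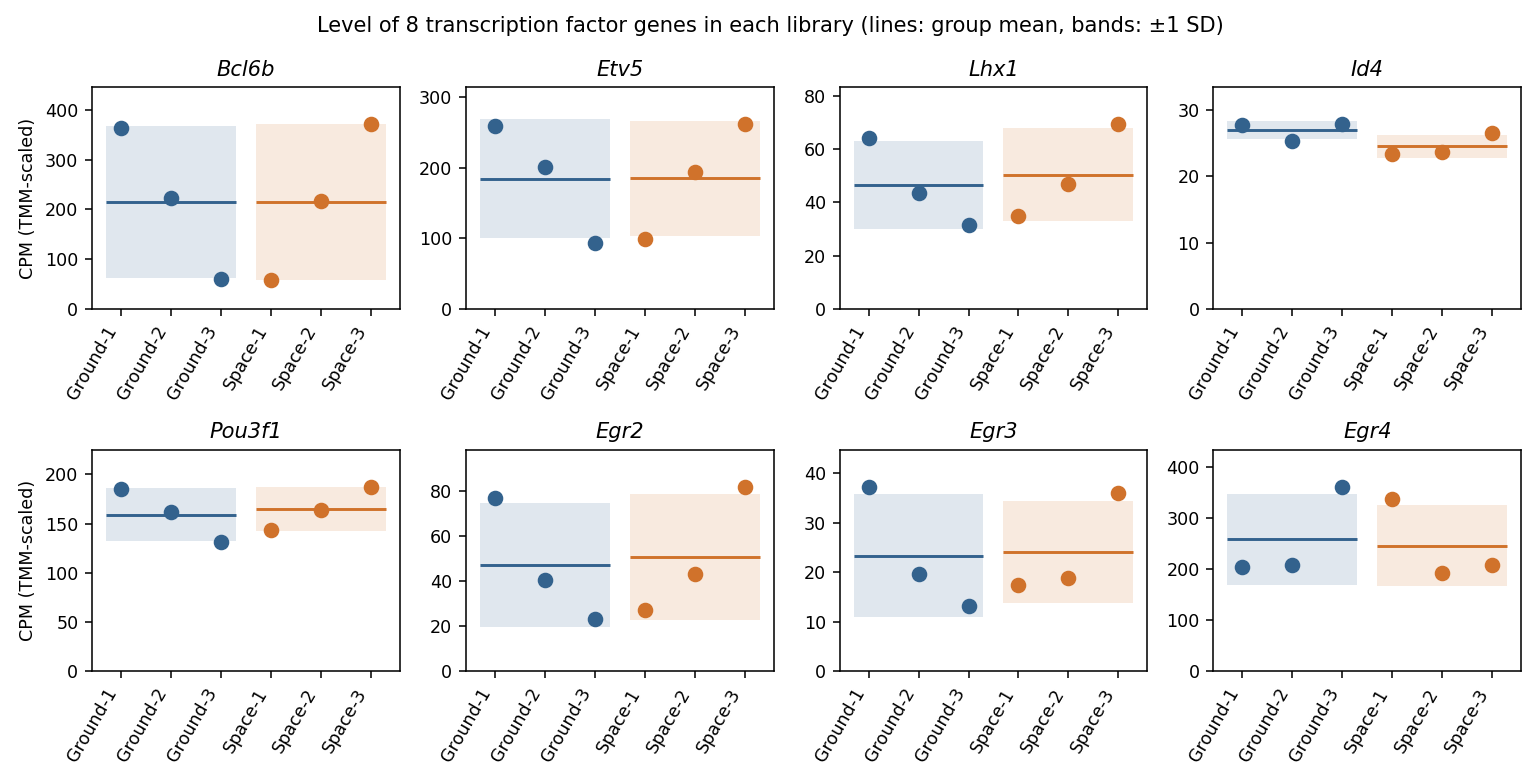
CPM of each of the 8 genes (y axis, from 0) in each of the 6 libraries (x axis), blue for Ground and orange for Space, with lines at the group means and bands of 1 SD. The group means of Bcl6b are 215 and 216 CPM while its libraries span 57.6 to 371 CPM, and Id4 spans only 23.3 to 27.8 CPM.

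Bcl6b encodes a BTB zinc finger repressor needed for SSC maintenance. The gene (ENSMUSG00000000317) lies on chromosome 11 at 70224128 to 70229798, minus strand, in GRCm38 like all positions here. Its level was 364, 222 and 59.1 CPM in the Ground libraries and 57.6, 218 and 371 CPM in the Space libraries. Ground-1 and Space-3 were high, Ground-2 and Space-2 intermediate and Ground-3 and Space-1 low, so that each group held the full range. The fold between highest and lowest library was 6.16 within Ground and 6.45 within Space. The group means were 215 ± 152 CPM in Ground and 216 ± 157 CPM in Space (SD, n = 3). On the log2 scale they were 0.0030 apart, with an SE of 0.73 (edgeR adjusted p = 0.9999). Because of the spread, the 95% interval of this difference in the unpaired fit ran from -1.69 to 1.70, and differences inside it are not excluded. Within the closest pairs, which were taken from the values, Bcl6b differed by at most 0.037 on the log2 scale. The within-group SD of Bcl6b was 1.37 on the log2 scale. Of the 7498 tested genes with a mean level at or above that of the weakest of the 8 genes, only 1, Bcl6b itself, had an SD that large.

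Etv5 encodes an ETS factor of the PEA3 family, whose loss in mice leads to exhaustion of SSCs. The gene (ENSMUSG00000013089) lies on chromosome 16 at 22381309 to 22439719, minus strand. It had 259, 202 and 93.0 CPM in Ground and 99.1, 195 and 262 CPM in Space. The order of libraries was that of Bcl6b, with a narrower range of 2.81-fold between Space-3 and Ground-3. Its means of 185 ± 84.2 CPM and 185 ± 81.8 CPM differed by 0.0050 on the log2 scale (SE 0.42, 95% interval -0.97 to 0.98, edgeR adjusted p = 0.9999). A larger SD within groups was found in 3.26% of all tested genes.

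Lhx1 encodes a LIM homeodomain factor that acts in SSC self-renewal. The gene (ENSMUSG00000018698) lies on chromosome 11 at 84518284 to 84525535, minus strand. It had 64.4, 43.6 and 31.5 CPM in Ground and 35.0, 46.8 and 69.4 CPM in Space, again highest in Ground-1 and Space-3 and lowest in Ground-3 and Space-1. In each of the 3 closest pairs the Space library lay above its Ground counterpart on the log2 scale, by 0.11 over Ground-1, 0.10 over Ground-2 and 0.15 over Ground-3. The same direction held in each pair for Pou3f1 (0.018 to 0.13) and Egr2 (0.082 to 0.24), and the pairs were taken from the values. For Id4 the Space library was the lower of each pair, and Bcl6b, Etv5, Egr3 and Egr4 had differences of both signs. The share of all tested genes with the same direction in all 3 pairs was not counted, so no shift can be read from these signs. The unpaired difference of 0.12 for Lhx1 was smaller than its standard error of 0.30 (95% interval -0.59 to 0.82, edgeR adjusted p = 0.9999).

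Pou3f1 encodes a POU domain factor that GDNF induces in SSC cultures. The gene (ENSMUSG00000090125) lies on chromosome 4 at 124656807 to 124660655, plus strand. Its level of 185, 161 and 131 CPM in Ground and 144, 163 and 187 CPM in Space kept the same order over a range of only 1.43-fold. Space exceeded Ground by 0.051 on the log2 scale (SE 0.14, edgeR adjusted p = 0.9999), and its 95% interval from -0.27 to 0.37 was narrower than for any other of the 8 genes except Id4. The exon of Pou3f1 overlaps Gm2164 on the opposite strand, and whether reads were counted by strand is not given in the sources used here. Gm2164 held 251 counts over all libraries, against at least 2986 counts of Pou3f1 in each library.

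Id4 encodes an inhibitor of basic helix-loop-helix factors and marks a stem-cell enriched fraction of spermatogonia. The gene (ENSMUSG00000021379) lies on chromosome 13 at 48261228 to 48266026, plus strand. It varied least of the 8 genes, with 27.7, 25.3 and 27.8 CPM in Ground and 23.3, 23.7 and 26.5 CPM in Space. Of the Space libraries, only Space-3 lay within the Ground range, and Ground-3, the lowest or nearly the lowest library for Bcl6b, Etv5 and Lhx1, was the highest for Id4. The mean was 26.9 ± 1.39 CPM in Ground and 24.5 ± 1.75 CPM in Space, or -0.14 on the log2 scale (SE 0.091, 95% interval -0.35 to 0.074). This was the largest of the 8 differences relative to its error, and it did not pass (edgeR unadjusted p = 0.173, adjusted p = 0.9999). In the closest pairs the Space library was lower each time, with log2 differences of -0.061 to Ground-1, -0.099 to Ground-2 and -0.25 to Ground-3. Its SD within groups was 0.089 on the log2 scale, close to the median of 0.097 over the 7498 genes at or above the weakest mean level of the 8. Its exons overlap A330033J07Rik and Gm49291 on the opposite strand, which held 2 and 10 counts in all.

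Egr2 and Egr3 encode zinc finger factors of the early growth response family, both induced by GDNF in cultured SSCs. Egr2 (ENSMUSG00000037868) lies on chromosome 10 at 67535475 to 67542188 and Egr3 (ENSMUSG00000033730) on chromosome 14 at 70077203 to 70082614, both on the plus strand. Egr2 had 77.1, 40.7 and 23.2 CPM in Ground and 27.4, 43.1 and 81.9 CPM in Space, a range of 3.52-fold in the order seen for Bcl6b. Egr3 had 37.3, 19.6 and 13.3 CPM in Ground and 17.5, 18.9 and 36.0 CPM in Space, a range of 2.80-fold. For both genes Ground-1 and Space-3 were far above the other 4 libraries, while Egr3 was nearly level in Space-1 and Space-2. Their log2 fold changes between groups were 0.11 (SE 0.49) for Egr2 and 0.046 (SE 0.40) for Egr3 (edgeR adjusted p = 0.9999 for each). The largest difference within a closest pair among all 8 genes was that of Egr3 between Space-1 and Ground-3, at 0.40 on the log2 scale.

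Egr4, the remaining member of the same family in the group, ran the other way. The gene (ENSMUSG00000071341) lies on chromosome 6 at 85511121 to 85513589, minus strand. Its level was 204, 209 and 361 CPM in Ground and 337, 192 and 208 CPM in Space. Ground-3 and Space-1, the low libraries for Bcl6b, were the high ones for Egr4, and the other 4 libraries lay close together. The group means of 258 ± 89.2 CPM and 246 ± 79.5 CPM were apart by less than the spread between libraries (log2 fold change -0.070, SE 0.28, 95% interval -0.71 to 0.57, edgeR adjusted p = 0.9999).

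**Figure D2:**
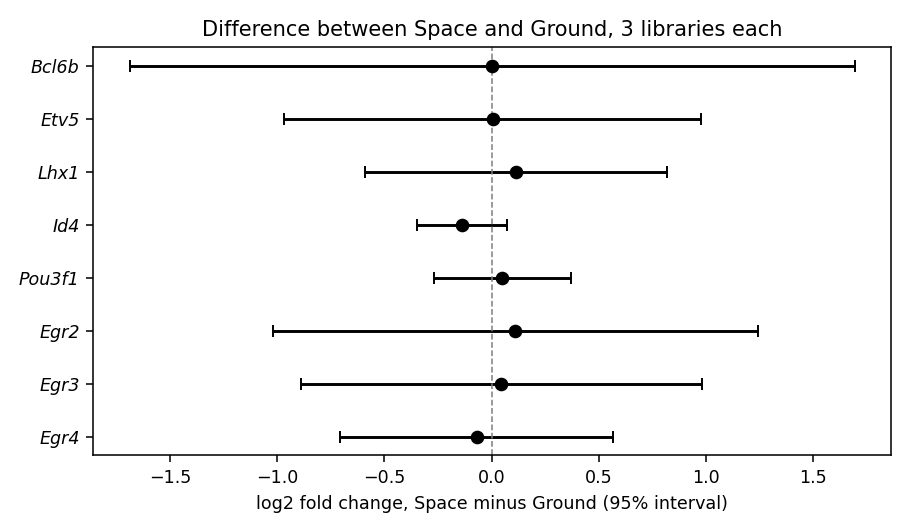
Log2 fold change of Space over Ground for each of the 8 genes (x axis; points, with bars for the 95% interval of edgeR's quasi-likelihood fit, 3 libraries per group). Each interval includes 0, from the narrow one of Id4 (-0.35 to 0.074) to the wide one of Bcl6b (-1.69 to 1.70).

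Promoter sequence was at hand in RefSeq (GRCm38.p6) for 5 of the 8 genes, Etv5, Lhx1, Id4, Egr2 and Egr4. The 250 bases before an annotated start are shown for Egr2 (1 of 5 windows), Egr4 and Id4, since these 3 genes were highest in Ground-1 and Space-3, highest in Ground-3 and Space-1, and nearly level. Capitals mark matches, on either strand, to the EGR site GCGNGGGCG, the cAMP response element (CRE) TGACGTCA, its core TGACG, the ETS site CCGGAA, the octamer ATGCAAAT, the LIM homeobox site TAATTA or the CArG box bound by serum response factor. A CRE contains its core on both strands, and the other motifs do not contain one another.
Egr2, plus strand of chromosome 10, chr10:67537619-67537868: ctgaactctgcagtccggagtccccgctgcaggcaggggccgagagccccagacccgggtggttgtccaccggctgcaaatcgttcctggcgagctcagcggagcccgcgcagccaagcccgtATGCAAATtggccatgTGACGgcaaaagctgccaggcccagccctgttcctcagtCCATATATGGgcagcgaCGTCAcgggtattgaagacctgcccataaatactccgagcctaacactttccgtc
Egr4, minus strand of chromosome 6, chr6:85513590-85513839: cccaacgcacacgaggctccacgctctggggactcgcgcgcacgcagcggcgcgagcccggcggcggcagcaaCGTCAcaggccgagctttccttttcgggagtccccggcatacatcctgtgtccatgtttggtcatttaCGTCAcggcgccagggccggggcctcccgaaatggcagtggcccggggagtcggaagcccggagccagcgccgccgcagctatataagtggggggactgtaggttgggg
Id4, plus strand of chromosome 13, chr13:48260866-48261115: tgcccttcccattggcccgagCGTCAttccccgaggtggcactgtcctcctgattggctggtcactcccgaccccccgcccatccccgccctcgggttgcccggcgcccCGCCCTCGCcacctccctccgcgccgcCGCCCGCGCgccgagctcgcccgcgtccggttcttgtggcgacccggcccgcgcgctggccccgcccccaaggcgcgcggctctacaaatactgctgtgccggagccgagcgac
The Egr2 window lies in introns of longer Egr2 transcripts in GENCODE M21, and the other 2 windows lie before the first exon of their gene, that of Id4 also in introns of A330033J07Rik and Gm49291. The Egr2 window shown held a CArG box, an octamer and 2 CRE cores, as did 2 windows that overlap it. The other 2 Egr2 windows differed, 1 with ETS sites and another CArG box and 1 with no match. The Egr4 window held 2 CRE cores and no CArG box, and the Id4 window held 2 EGR sites and 1 CRE core. Neither Etv5 window held a match, and the Lhx1 window held 1 CRE core and no CArG box. Etv5 and Lhx1 were, like Egr2, highest in Ground-1 and Space-3, and a link between motifs and library order was not tested. Over all 32841 RefSeq promoter windows of this length, 1.47% held a CArG box, 17.8% a CRE core, 4.70% an EGR site and 1.60% an octamer. These are matches of letters and say nothing of binding in GS cells.

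Levels of different genes were compared per kilobase of exon model. In CPM per kilobase, as mean and SD over 6 libraries, Egr4 was the highest at 117 ± 35.3, followed by Bcl6b at 57.9 ± 37.2, Etv5 at 45.1 ± 18.1 and Pou3f1 at 42.1 ± 5.78. Egr2 followed at 14.4 ± 7.33, Lhx1 at 11.9 ± 3.79, Id4 at 6.68 ± 0.505 and Egr3 at 5.39 ± 2.31. The order was not fixed. Bcl6b exceeded Egr4 in Ground-1, where it had 97.8 CPM per kilobase against 95.1, and was far below it in Ground-3, with 15.9 against 168. The ranges of neighbours in this order overlapped everywhere except between Pou3f1 and Egr2 and between Lhx1 and Id4.

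**Figure D3:**
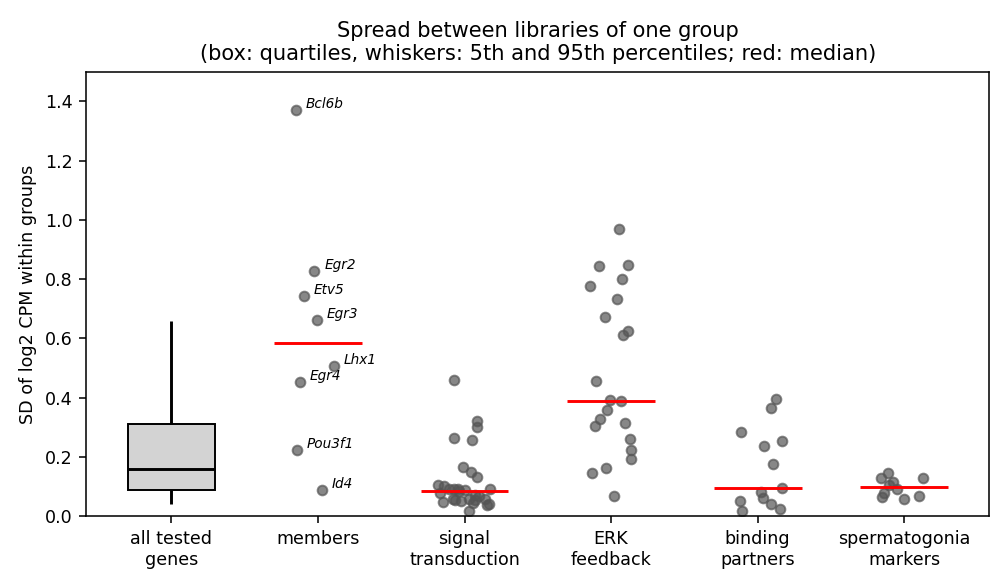
SD of log2 CPM within groups (y axis) for all 15104 tested genes (box and whiskers) and for single genes of 5 groups (points, red line at the median). The 8 genes described here have a median of 0.58, against 0.16 over all genes (0.097 over the 7498 genes at or above the mean level of the weakest of the 8), 0.087 in GDNF signal transduction and 0.39 in the ERK genes.

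The library order seen for Bcl6b recurred in other genes of the group. In all, 6 of the 8 genes were higher in Ground-1 and Space-3 than in the other 4 libraries, and this was true of 20% of all tested genes. In the same 6 genes, Ground-2 and Space-2 also both exceeded Ground-3 and Space-1, which held for 10.1% of all genes. None of the 8 had exactly the reverse order, which 10.2% of all genes had. Egr4 was among the 23.5% of genes that were highest in Ground-3 and Space-1. This order was noticed in the values of these genes before it was counted elsewhere, and the same libraries underlie all the counts. When Ground-2 and Space-2, which had the highest mitochondrial share, were left out, Ground-1 and Space-3 exceeded Ground-3 and Space-1 in the same count of 6 of 8 genes, against 36.3% of all genes. Only Egr4 was higher in the latter pair throughout, against 35.6% of all genes.

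Genes of the pathway upstream of these factors had a smaller median spread than the 8 genes. Of 30 GDNF signal transduction genes, all were tested and 0 passed the test between Space and Ground, with a median log2 fold change of 0.0068 (range -0.31 to 0.11). Their median SD within groups was 0.087 on the log2 scale, beside 0.58 for the 8 genes, 0.16 for all tested genes and 0.097 for the 7498 genes expressed at or above the weakest of the 8. Ret, the signalling receptor, had 401, 449 and 401 CPM in Ground and 403, 458 and 401 CPM in Space, which separated only Ground-2 and Space-2 from the rest. Gfra1, the ligand-binding co-receptor, had 142, 149 and 100.4 CPM in Ground and 101, 141 and 148 CPM in Space, and was low in the 2 libraries in which Bcl6b was low. In this list 6 of 30 genes were highest in Ground-1 and Space-3, against 20% of all genes, and 8 of 30 in Ground-3 and Space-1, against 23.5%. Gdnf itself was barely detected, at 0 to 0.37 CPM.

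ERK immediate early and feedback genes were mostly highest in Ground-1 and Space-3, 21 of the 22 tested against 20% of all genes. Of 23 listed genes 22 were tested, and 0 passed the test between Space and Ground (median log2 fold change 0.00051). The exception was Srf, the gene of serum response factor, which was highest in Ground-3 and Space-1. Without Ground-2 and Space-2 the count was also 21 of 22, against 36.3% of all genes. Dusp6, which encodes an ERK phosphatase, had 186, 108 and 62.4 CPM in Ground and 59.7, 109 and 184 CPM in Space. Spry4, a feedback inhibitor of receptor tyrosine kinase signalling, had 82.7, 44.9 and 26.1 CPM in Ground and 26.1, 46.3 and 86.0 CPM in Space. In both genes the libraries fell in the order of Bcl6b, and 11 of the 22 genes did so, against 10.1% of all genes. The others, such as Fos with 149, 77.5 and 87.5 CPM in Ground and 102, 78.2 and 138 CPM in Space, did not rank the other 4 libraries in that order.

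**Figure D4:**
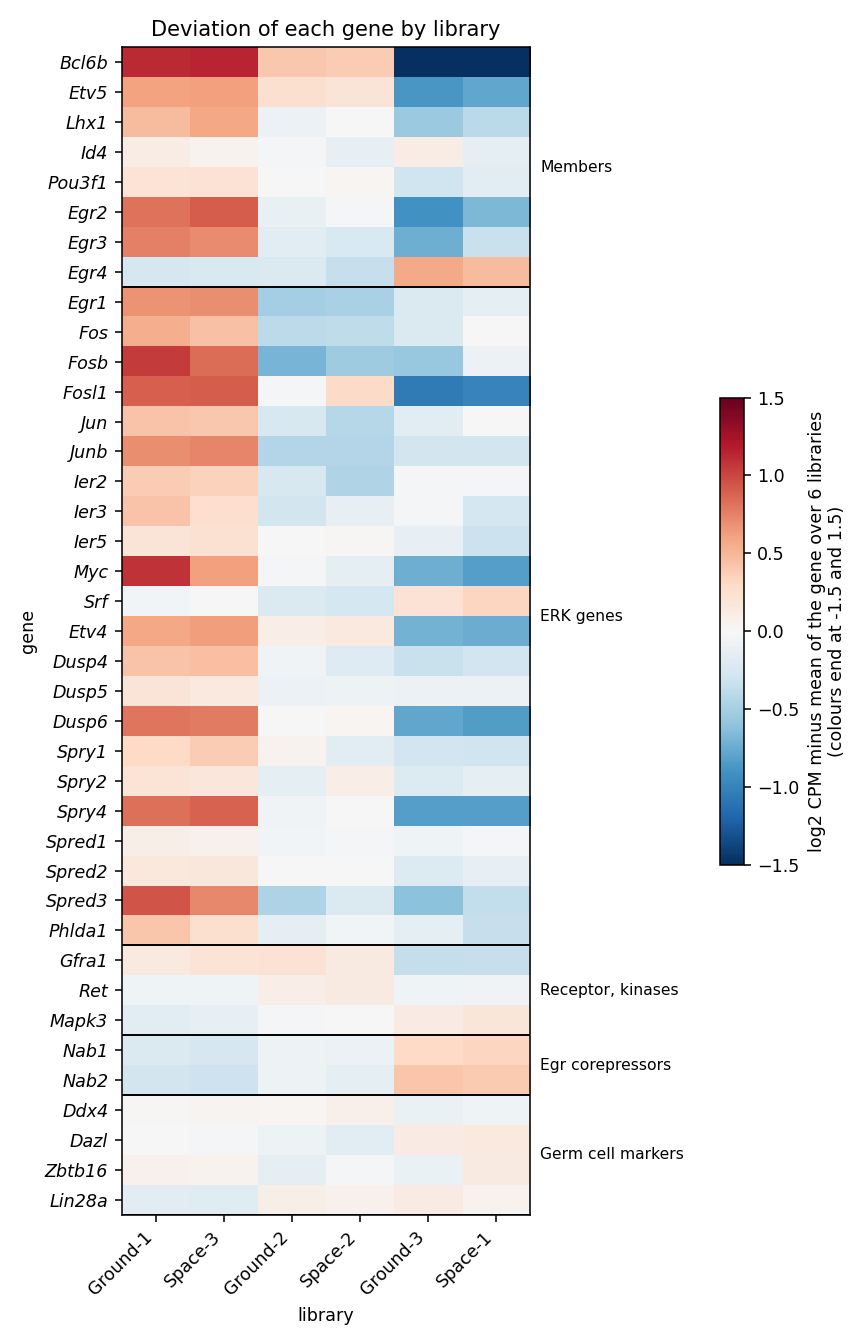
Log2 CPM minus the mean of the gene over 6 libraries (colour, red above and blue below the mean) for the 8 genes, the tested ERK genes, 3 receptor and kinase genes, 2 Egr corepressor genes and 4 germ cell markers (rows), with libraries as columns in their closest pairs. Both columns of a pair look alike, and Ground-1 and Space-3 hold the highest values for 6 of the 8 genes and for 21 of the 22 ERK genes. This was so for 20% of all tested genes.

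Relatives of the 8 genes differed in how far they shared the pattern. Etv4, the close relative of Etv5, had 144, 103 and 59.1 CPM in Ground and 57.4, 106 and 149 CPM in Space, the order of Etv5. Egr1 had 608, 268 and 328 CPM in Ground and 345, 273 and 618 CPM in Space, high in Ground-1 and Space-3 and otherwise lowest in Ground-2 and Space-2. Bcl6, related to Bcl6b, was level at 23.1 to 26.8 CPM, and Id1 and Id3, relatives of Id4, were at 16.9 to 26.5 CPM and 26.6 to 39.3 CPM. Of 13 relatives 9 were tested and 0 passed the test between groups (median log2 fold change 0.029).

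Among 13 binding partners, all tested, 0 passed the test between Space and Ground (median log2 fold change -0.0053). Nab1 and Nab2, corepressors that bind Egr factors, were higher in Ground-3 and Space-1, opposite to Egr2 and Egr3 and like Egr4. Nab2 had 146, 168 and 235 CPM in Ground and 233, 159 and 142 CPM in Space. The E protein genes Tcf3 and Tcf12, whose products Id4 opposes, varied little, at 463 to 491 CPM and 158 to 164 CPM, and Ldb1, a cofactor of LIM homeodomain factors, was at 197 to 209 CPM.

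Other genes reported to respond to GDNF were unevenly divided. The order of Bcl6b held in 6 of the 11 tested, against 10.1% of all genes, and its reverse in 2, against 10.2%. Of 12 found in the table, 11 were tested and 0 passed the test between groups (median log2 fold change 0.012), and 4 of them stand in the lists above as well. T, the Brachyury gene, had 13.1, 8.52 and 4.52 CPM in Ground and 3.95, 7.30 and 10.3 CPM in Space, and Ccnd2, the cyclin D2 gene, had 737, 521 and 447 CPM in Ground and 445, 529 and 753 CPM in Space. Both had the order of Bcl6b. Mycn, a proto-oncogene of the Myc family, had the reverse order, with 105, 119 and 172 CPM in Ground and 174, 124 and 102 CPM in Space. Nanos2, an RNA-binding regulator that keeps spermatogonia undifferentiated, was also higher in Ground-3 and Space-1, at 12.1 and 11.4 CPM against 4.78 to 6.39 CPM elsewhere.

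Markers of the cell types in the culture were compared with the library order of Bcl6b. The summed germ cell markers differed by at most 1.06-fold between libraries, in the reverse of the order of Bcl6b. They were 3449 and 3472 CPM in Ground-1 and Space-3, and 3522 and 3509 CPM in Ground-2 and Space-2. In Ground-3 and Space-1 they were 3666 and 3671 CPM. Of the 10 markers, 1 was highest in Ground-1 and Space-3, against 20% of all genes, and 2 in Ground-3 and Space-1, against 23.5%. When Ground-2 and Space-2 were left out, 2 of 10 were higher in Ground-1 and Space-3, against 36.3% of all genes. In Ground-3 and Space-1 5 of 10 were higher, against 35.6%. The summed fibroblast markers were 1226 CPM in Ground-3 and 924 CPM in Space-1, while Bcl6b was 59.1 and 57.6 CPM in these libraries, and they were 1226 CPM in Ground-1, where Bcl6b was 364 CPM. Among the 20 fibroblast genes, 2 had the order of Bcl6b, against 10.1% of all genes. Of the 20, 4 were highest in Ground-1 and Space-3, against 20% of all genes, and 0 in Ground-3 and Space-1, against 23.5%. Without Ground-2 and Space-2, 10 of 20 were higher in the former pair, against 36.3% of all genes, and 0 in the latter, against 35.6%. In the comparison of groups, 19 of 20 had a lower estimate in Space, against 7743 of all 15104 genes tested. Their median log2 fold change was -0.33, beside -0.0020 over all genes, and 0 passed edgeR's test after adjustment. In the same edgeR test 4 of the 20 had an unadjusted p under 0.05, against 0.609% of all genes. This count was 0 without Ground-2, 1 without Space-1, 8 without Space-2 and 3 without Space-3. It was 2 without Ground-1, without Ground-3 or with the replicate block. What part the feeder cells or the mitochondrial share had in the spread of the 8 genes was not tested. Markers of meiotic cells summed to 269 to 295 CPM, and 0 of 5 passed the test. Without Ground-2 and Space-2, 4 of these 5 were higher in Ground-1 and Space-3, against 36.3% of all genes. In Ground-3 and Space-1 0 were higher, against 35.6%. Their estimate was lower in Space in 5 of 5, with a median log2 fold change of -0.058. Among Sertoli cell markers 4 of 6 were tested, among genes of GDNF family ligands 2 of 4, and 0 passed in either list.

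The genes most alike to each of the 8 over the 6 libraries were found among 10851 tested genes with a mean of at least 5 CPM, by Pearson's r of log2 CPM. These values describe 6 libraries that form 3 closest pairs, and are not measures of shared function or control. Bcl6b was closest to Akap12 and Tbc1d4 (r of 0.9995 and 0.9993), Etv5 to Tbc1d25 and Coro1b, and Pou3f1 to Lrp11 and Arhgap1. Lhx1 was closest to Egr2 itself (r = 0.9986) and to Map1a. Egr2 was closest to Tmc6 and to Cd93, which spanned 8.75-fold from 1.62 CPM in Ground-3 to 14.2 CPM in Space-3, and Egr3 to Rhbdf2 and Myo18a. Egr4 was closest to Timm10 and Cox5b, which varied by only 1.30-fold and 1.07-fold, and Id4 to Cr1l and Tmx3.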

How the data were processed

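A single table of unnormalized gene counts for 6 mRNA libraries was what the authors deposited. In the study's methods, cutadapt trimming preceded HISAT2 alignment to mm10 (GENCODE M21). The submitters' processing notes list cutadapt 4.1, HISAT2 2.2.1 and HTSeq 2.0.2. The strand setting and the handling of shared reads are not given in the sources used here, and labels and methods name different library kits.

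In R 4.3.3, edgeR 4.0.16 was run with filterByExpr, TMM and its quasi-likelihood F test (2-sided), leaving the replicate numbers out of the model. The Benjamini-Hochberg adjustment ran over all 15104 genes, with a threshold of 0.05. The SE is the log2 fold change divided by the square root of F, and a prior count of 2 went into log2 CPM. Exon lengths came from GENCODE M21 (GRCm38). The named genes were the 8 factors, genes of the pathway and marker lists, and for each factor the 2 genes with the highest r among tested genes averaging 5 CPM or more. The count of library orders without Ground-2 and Space-2 was chosen after seeing the data. These genes and lists were chosen with earlier results of these data known. Alternatives were RLE scaling, total counts, removal of mitochondrial genes, 2 other filters, DESeq2 1.42.0, voom in limma 3.58.1, a threshold of 0.10, the replicate block and leaving out libraries. The procedure was tested on simulated counts, drawn independently for each library. They lacked the closest pairs across groups, so that test does not show how the procedure behaves in these libraries.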

Additional observations from a re-analysis of the deposited data

How the results depend on the processing

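The count of 0 of 8 genes differing between Space and Ground was the same in all 16 alternatives, with 0 of 8 at an unadjusted p under 0.05 in each. The smallest adjusted p of any of the 8 genes in any alternative was 0.9997. The count over all genes was also 0 throughout, with an unadjusted p under 0.05 for 45 to 192 genes, and each gene list gave 0. The sign of most differences depended on which libraries were present. In the 6 fits without 1 library, the log2 fold change ranged from -0.65 to 0.62 for Bcl6b, -0.33 to 0.33 for Etv5, -0.19 to 0.43 for Lhx1 and -0.067 to 0.17 for Pou3f1. It ranged from -0.42 to 0.67 for Egr2, -0.36 to 0.56 for Egr3, -0.37 to 0.26 for Egr4 and -0.20 to -0.10 for Id4. Without Ground-3 or Space-3, 7 of the 8 signs turned (all but Id4). Without Space-2 the signs of Bcl6b (-0.0039), Etv5 (-0.032) and Egr4 (0.080) turned, and without Ground-2 that of Egr3 (-0.064). Bcl6b also changed sign with limma-voom (-0.017).

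The replicate numbers in the titles did not pair the libraries. Same-numbered libraries had correlations of deviations from the group means of -0.54, 0.33 and -0.61 for numbers 1, 2 and 3, and only Ground-2 and Space-2 matched best with their own number. With the replicate block 0 genes passed, 63 had an unadjusted p under 0.05, and Bcl6b had a log2 fold change of -0.017 (SE 1.13). It changed no call.

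With 3 libraries per group, differences within the intervals given are not excluded, and the intervals are not limits of detection. The 95% counting interval of the lowest count of each gene had bounds within about 3.28% (Egr4) to 11.4% (Egr3) of it. This was 9.42% for Id4, whose SD within groups was 0.089 on the log2 scale. These are unlike measures, and how much of that SD was counting error was not tested.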
